A study of Mus musculus with 4 samples.

Results

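The genes that encode the proteins of the cytosolic ribosome were followed across 4 mouse cell populations. Members were the genes of the deposited count table whose symbol starts with Rpl, Rps or Rplp plus a digit, together with Rpsa. The kinase genes named Rps6k (10 genes) and 16 rows whose symbol carries -ps were left out. Of 87 matching symbols, 86 had at least 50 UMIs (unique molecular identifiers, 1 per captured mRNA copy) over all cells, out of 27998 genes in the table. The gene that missed this minimum was Rpl3l, with 32 UMIs, and the members nearest to it were Rpl39l with 260 and Rpl10l with 457. By name 52 members belong to the large subunit and 34 to the small subunit. Canonical ribosomal proteins made up 77 of them, 7 were relatives or copies of another member (Rpl22l1, Rps27l, Rps27rt, Rpl39l, Rpl36al, Rpl10l and Rpl6l), and 2 (Rps19bp1 and Rpl7l1) carry such a name without being structural proteins of the cytosolic ribosome.

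A ribosome joins a small subunit, which reads the mRNA, to a large subunit, which forms the peptide bond, and each holds 1 copy of most of its proteins. Cells make these proteins in matched amounts, and many of their mRNAs begin with a TOP motif, a C followed by a run of pyrimidines at the very start of the transcript, through which the kinase complex mTORC1 and the binding protein LARP1 govern their translation. A few members have a paralogue that can take their place, such as Rpl22l1 for Rpl22, and the lateral stalk that recruits translation factors is built from Rplp0, Rplp1 and Rplp2. Pluripotent and early embryonic cells are known for a high output of ribosomes.

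All 4 populations model neuromesodermal progenitors (NMPs) or the caudal epiblast, the tissue of the embryo's tail end that feeds spinal cord and paraxial mesoderm, and each was profiled as 1 10x Chromium library into which 8700 cells were loaded. ES-NMP cells were E14Tg2a mouse embryonic stem cells held for 2 days in N2B27 medium on gelatine and then given CHIR99021, an activator of Wnt signalling, for 24 hours. Epi-CE cells came from epiblast stem cells, made from E14Tg2a with FGF2 and Activin A on fibronectin. Activin A was then withdrawn, FGF2 raised to 20 ng/ml, and CHIR99021 added on day 3. Epi-CE-T cells were treated like Epi-CE but came from a Bra:GFP reporter line and were sorted at 72 hours for GFP, which reports T (Brachyury). Epi-NMP cells were Epi-CE cells replated for 2 further days in FGF2 and CHIR99021. CHIR99021 was at 3 µM in every population, and all 4 are labelled with strain E14Tg2a. Only Epi-CE-T went through a sort, and it came from a line of its own, so the sort, the line and the library cannot be told apart there.

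The cell table that accompanies the counts marks each barcode TRUE or FALSE, and TRUE barcodes were used: 3116 in ES-NMP, 2386 in Epi-CE, 2109 in Epi-CE-T and 1111 in Epi-NMP, with 71563029, 58663735, 44990488 and 22261452 UMIs in the same order. Median UMIs per cell ran from 19189 to 22613.5. In Epi-NMP 1513 barcodes were FALSE, against 80 to 172 in the other libraries. Of the TRUE barcode sequences, 42 occurred in 2 libraries. The labels were checked against markers. E14Tg2a is known as a line that lacks HPRT, and Hprt stood at 0.801 CPM (counts per 1000000) in Epi-CE and 0.943 in Epi-NMP but at 204 in ES-NMP and 138 in Epi-CE-T, so the libraries labelled ES-NMP and Epi-CE-T went against the strain label. In every comparison with ES-NMP, too, line, culture and library therefore cannot be told apart. T, Sox2, Nkx1-2 and Cdx2, which mark NMPs, were found in all 4 libraries, but Nkx1-2 (12.6 CPM) and Cdx2 (4.67 CPM) were low in Epi-CE-T. Summed over the cells of a library, T stood at 431 CPM in Epi-CE and 382 in Epi-CE-T. The library sorted for the T reporter was thus not higher in T RNA than unsorted Epi-CE, and the reason was not tested. The 9 naive pluripotency markers, with Zfp42 at 167 CPM, summed to 1758 CPM in ES-NMP against 20.5 to 63.0 CPM elsewhere. Of the 9, 1 was at 0 in Epi-CE-T and 2 in Epi-NMP. In Epi-CE over ES-NMP 8 of the 9 were at least 1.5-fold lower and 1 was higher, where 16.7% and 22.1% of all genes tested were. The 5 markers of node and notochord summed to 192 CPM in Epi-CE-T and to 2.64 to 61.1 CPM in the others, a sum carried by Shh (78.7 CPM in Epi-CE-T and 4.43 in Epi-CE) and Chrd (71.1 and 12.4), while Foxa2 had 34.3 and 35.4 CPM. Of these 5, 2 were at least 1.5-fold higher and 1 was lower in Epi-CE-T than in Epi-CE, where 18.9% and 15% of all genes tested were. None of the 5 blood markers reached the minimum of UMIs. Where 4 values stand side by side they are in library order, ES-NMP first, then Epi-CE, then Epi-CE-T and last Epi-NMP. With 1 library per population there was no test across samples and no p-value, and every interval given is an exact 95% interval for counting error only.

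As a whole the family took nearly the same share of the transcriptome in all 4 libraries. It made up 28.1% of UMIs in ES-NMP, 28.2% in Epi-CE, 28.1% in Epi-CE-T and 27.8% in Epi-NMP. The libraries farthest apart were Epi-NMP and Epi-CE, with a ratio of 0.985 (0.984 to 0.986). Within each library single cells spread far more widely than the libraries did, from 24.3% at the 5th percentile to 34.0% at the 95th in ES-NMP and from 23.0% to 33.1% in Epi-CE-T. Large-subunit members held 57.3%, 56.8%, 58.2% and 56.3% of the family's UMIs in library order. The share followed depth, since it was 29.4% in the third of ES-NMP cells with the fewest UMIs and 27.6% in the third with the most, and 29.6% against 27.4% in Epi-CE. FALSE barcodes also had a higher share, 28.9% to 31.6%.

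Because the whole was so even, single members were compared as their number of UMIs per 10000 family UMIs, a scale on which a change shared by all members cancels out. On this scale the highest of the 4 libraries exceeded the lowest by a median factor of 1.16 over the 84 members found in every library. It was under 1.1 for 22 members, under a 25% excess for 54 (the 22 included), and from there to under 1.5 for 26. The steadiest were Rpl27a at 1.03, Rpl11 (a large-subunit protein that can bind Mdm2) at 1.04 and Rpl17 at 1.05. Rpl27a, for example, had 122, 120, 120 and 118 UMIs per 10000 family UMIs in the 4 libraries. At 1.5-fold or more stood 4 members, namely Rpl7l1 (1.67), Rps19bp1 (1.63), Rplp1 (1.63) and Rpl22l1 (1.52), and 2 more, Rpl39l and Rpl10l, were at 0 UMIs in at least 1 library. Just under the limit were Rplp0 at 1.498 and Rps12 at 1.48. By the same measure 74.1% of the 14336 genes with at least 50 UMIs, and 54.2% of those that reached 100 CPM, differed by 1.5-fold or more between their highest and lowest library, against 6 of 86 members.

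In the 4 comparisons of the design the same limit of 1.5-fold left few members. Epi-CE over ES-NMP had 3 (Rpl22l1 higher, Rpl39l and Rpl10l lower), where 38.9% of all genes tested passed. Epi-NMP over ES-NMP had 2 (Rpl39l and Rpl10l, both lower), where 37.7% of genes passed. Rpl39l and Rpl10l reached the minimum of UMIs only through ES-NMP, with 256 and 441 UMIs there. The minimum itself thus favours their call as lower elsewhere. With no minimum but at least 1 UMI in both libraries, Epi-NMP over ES-NMP had 0. Epi-NMP over Epi-CE had 0, where 40.7% of genes passed. For Epi-CE-T over Epi-CE the count was again 0, where 34% of genes passed. Most members are abundant, and among genes that reached 100 CPM in the higher library 23.8%, 13.9%, 22.2% and 17.2% passed in the same order of comparisons. A lower limit, a share at least 25% above that of the other library, gave 8, 7, 5 and 12 members in the same order of comparisons, against 60.7%, 58%, 62.2% and 55.2% of all genes. Epi-CE-T over Epi-CE therefore held the most members at the lower limit, 7 higher and 5 lower, and the higher ones include Rpl13 of chromosome 8 and 5 of the 7 members of chromosome 11.

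**Figure D1:**
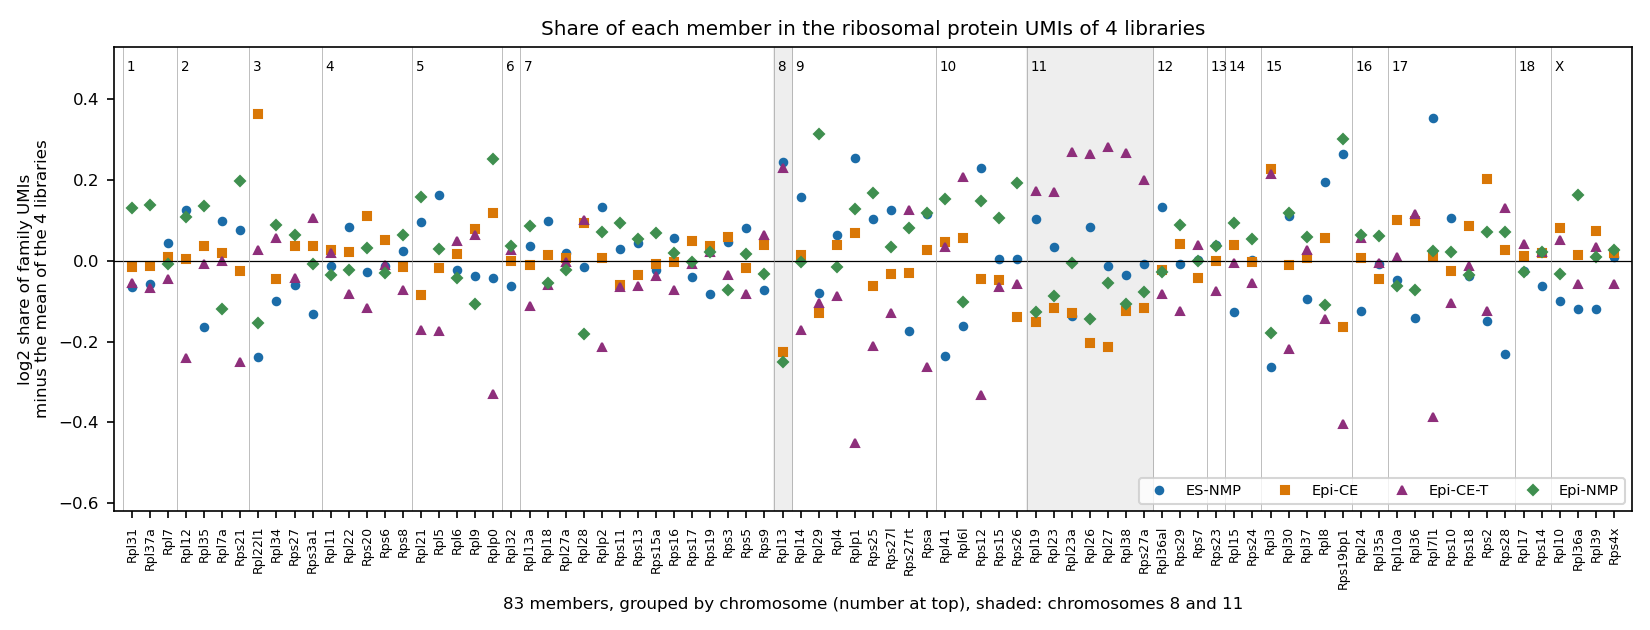
Share of each member in the family's UMIs, as the log2 value in a library minus the mean of the 4 libraries (y axis), for 83 members found in all libraries, ordered by chromosome (x axis, chromosome numbers at the top). Points are single libraries, and in the shaded blocks of chromosomes 8 and 11 the Epi-CE-T triangles lie above the Epi-CE squares for all 8 members drawn.

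Rpl13 on chromosome 8 and the members on chromosome 11 all had a larger share in Epi-CE-T than in Epi-CE. They did not keep the same order of libraries, as ES-NMP was near Epi-CE-T for Rpl13 and below it for the members on chromosome 11. In build mm10, Rpl13, a large-subunit protein, lies on chromosome 8 (123102350 to 123105244, plus strand). Chromosome 11 carries Rps27a (29545846 to 29548109), Rpl26 (68901583 to 68906989), Rpl23a (78180932 to 78183584), Rpl23 (97777527 to 97782437), Rpl19 (98026710 to 98030492), Rpl27 (101442298 to 101445529) and Rpl38 (114668524 to 114672331). The 7 span most of that chromosome and are no cluster of neighbours. All but Rps27a are large-subunit proteins, and Rps27a is made as a fusion of ubiquitin with a small-subunit protein. Of these 8 genes 6 differed by 25% or more between their highest and lowest library, and 7 were lowest in Epi-CE or Epi-NMP. Of the 75 members on other chromosomes that were found in every library, 23 reached 25%, and 36 were lowest in Epi-CE-T.

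The start sites of Rpl13 and of the chromosome 11 members are shown beside each other. RefSeq start regions (build GRCm38.p6) were found for 65 of the 86 members. Each line gives 30 bases of the sense strand, from 10 bases before the annotated start, in lower case. Capitals mark a TOP match, searched on the sense strand as a C followed by at least 4 pyrimidines that begins within 5 bases of the annotated start. For chromosomes 8 and 11 the regions found were those of Rpl13, Rpl26, Rpl23, Rpl19, Rpl27 and Rpl38.

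Rpl13 (chr8:123102340-123102369, plus strand): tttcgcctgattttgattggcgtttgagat

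Rpl26 (chr11:68901556-68901585, plus strand): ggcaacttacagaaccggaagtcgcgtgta

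Rpl23 (chr11:97782420-97782449, minus strand): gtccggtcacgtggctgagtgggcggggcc

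Rpl19 (chr11:98026700-98026729, plus strand): aaacgCCCTCactgcgcatgtgcgccgcgg

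Rpl27 (chr11:101442235-101442264, plus strand): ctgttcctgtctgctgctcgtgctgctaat

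Rpl38 (chr11:114668570-114668599, plus strand): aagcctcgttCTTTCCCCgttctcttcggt

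Of these 6, only Rpl19 and Rpl38 hold a match at the annotated start. In all, 30 of 65 member regions hold one (46.2%), against 5718 of 27025 RefSeq genes (21.2%). A single annotated start can miss the start used in these cells, so a region with no match says only that these letters are not in this window. The median factor between the highest and the lowest library was 1.16 over 30 members with a match and 1.15 over 33 without. It was 1.22 over 50 large-subunit and 1.12 over 34 small-subunit members, and 7 of the 8 genes just named (Rpl13 and the members of chromosome 11) are in the first group. Over those 8 it was 1.32, and over the 75 members of other chromosomes 1.15.

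Rpl13 had 333 UMIs per 10000 family UMIs in ES-NMP, 240 in Epi-CE, 330 in Epi-CE-T and 236 in Epi-NMP. ES-NMP and Epi-CE-T were thus high, and Epi-CE and Epi-NMP low. Rpl13 was 1.39-fold lower in Epi-CE than in ES-NMP, and its share in Epi-CE-T over Epi-CE was 1.37 (1.37 to 1.38).

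On chromosome 11 the Epi-CE-T library was highest for all 7 members. Rpl26 had 215, 176, 243 and 183 UMIs per 10000 family UMIs in the 4 libraries, and Rpl19 had 181, 152, 190 and 154. Rpl27 had 35.3, 30.7, 43.3 and 34.3. For these 3 members ES-NMP lay between Epi-CE-T and Epi-CE. Epi-CE-T over Epi-CE was 1.41 (1.39 to 1.43) for Rpl27, 1.38 (1.38 to 1.39) for Rpl26, 1.32 (1.31 to 1.33) for Rpl23a, 1.31 (1.302 to 1.322) for Rpl38, 1.252 (1.245 to 1.259) for Rpl19, 1.246 (1.24 to 1.251) for Rps27a and 1.22 (1.21 to 1.23) for Rpl23. Rpl23a departed from the others in being lowest in ES-NMP (99.4, against 99.8 in Epi-CE, 132 in Epi-CE-T and 109 in Epi-NMP).

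Genes of the same chromosomes that are not members lay off 1 in the same direction. In Epi-CE-T over Epi-CE the median log2 CPM ratio was 0.51 over 349 other genes of chromosome 8 and 0.38 over 555 of chromosome 11, and for every other chromosome it lay between -0.09 and 0.02. As log2 ratios of family shares, Rpl13 stood at 0.46 and the median of the 7 members of chromosome 11 at 0.39. In ES-NMP over Epi-CE the other genes' medians were 0.52 and 0.25, the values of Rpl13 and of the chromosome 11 members 0.47 and 0.15, and the other chromosomes' lay between -0.11 and 0.10. In ES-NMP over Epi-NMP chromosome 8 stood at 0.49 and chromosome 11 at 0.11. In Epi-NMP over Epi-CE chromosome 8 was at 0.01, whereas chromosome 11 was at 0.17 within a range of -0.03 to 0.17 for the rest. These comparisons share libraries, so their values are not independent of each other. Gnb2l1 (Rack1), a ribosomal protein of chromosome 11 whose symbol falls outside the rule, was lowest in Epi-CE as well, with 2558, 1952, 2264 and 2002 CPM in the 4 libraries. Fau, on chromosome 19, had 2250, 2477, 2544 and 2330 CPM.

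**Figure D2:**
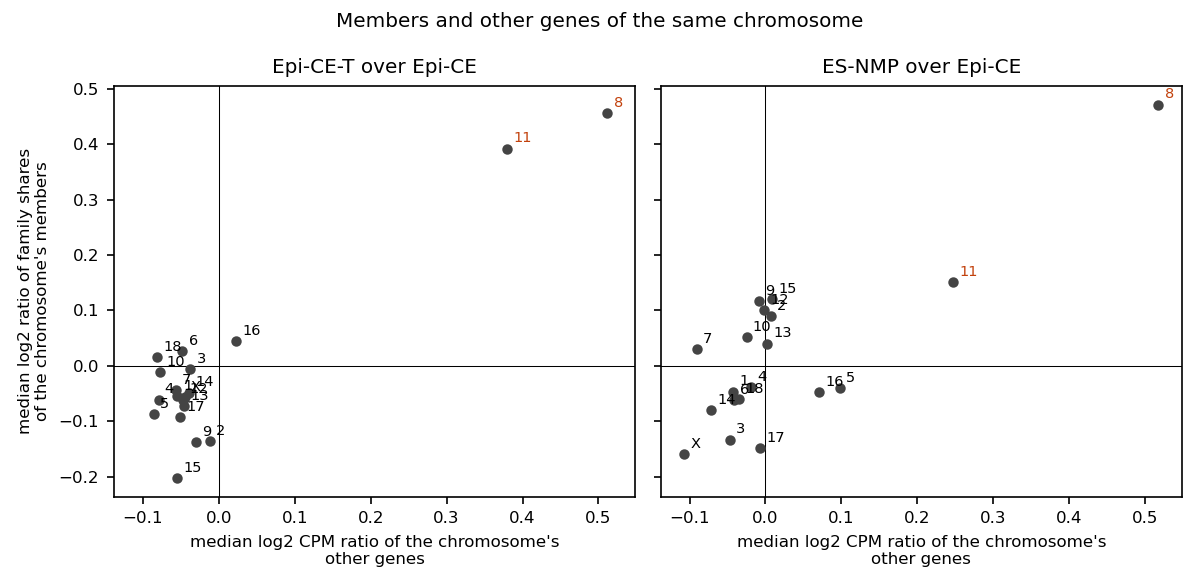
Each point is 1 chromosome, with the median log2 CPM ratio of its genes that are not members (x axis) and the median log2 ratio of the family shares of its members (y axis, Rpl13 alone for chromosome 8), in Epi-CE-T over Epi-CE (left) and ES-NMP over Epi-CE (right). Chromosome 8 lies farthest to the right in both panels, at 0.51 and 0.52, and chromosome 11 is next at 0.38 and 0.25.

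In single cells the chromosome 11 members fell into a low and a high range within libraries. Each cell was thinned to 8000 UMIs at random, and the 7 members of chromosome 11 were given as a percent of the cell's ribosomal protein UMIs. The median was 10.7% in ES-NMP, 8.45% in Epi-CE, 11.7% in Epi-CE-T and 8.65% in Epi-NMP. In ES-NMP, Epi-CE and Epi-NMP the cells formed 2 peaks, near 8% and near 12%, with few cells at 10%. Epi-CE-T had nearly all its cells in the upper peak. The standard deviation over cells was 1.946, 1.67, 0.873 and 1.83 percentage points in library order, where counting alone would give 0.638, 0.602, 0.680 and 0.618. Rpl13 had medians of 3.32%, 2.39%, 3.33% and 2.36% and 1 peak in each library. Its standard deviation was 0.566, 0.366, 0.506 and 0.368 percentage points, where counting alone would give 0.379, 0.323, 0.380 and 0.323. For a single gene with such counting error, 1 peak does not show that the cells were alike.

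**Figure D3:**
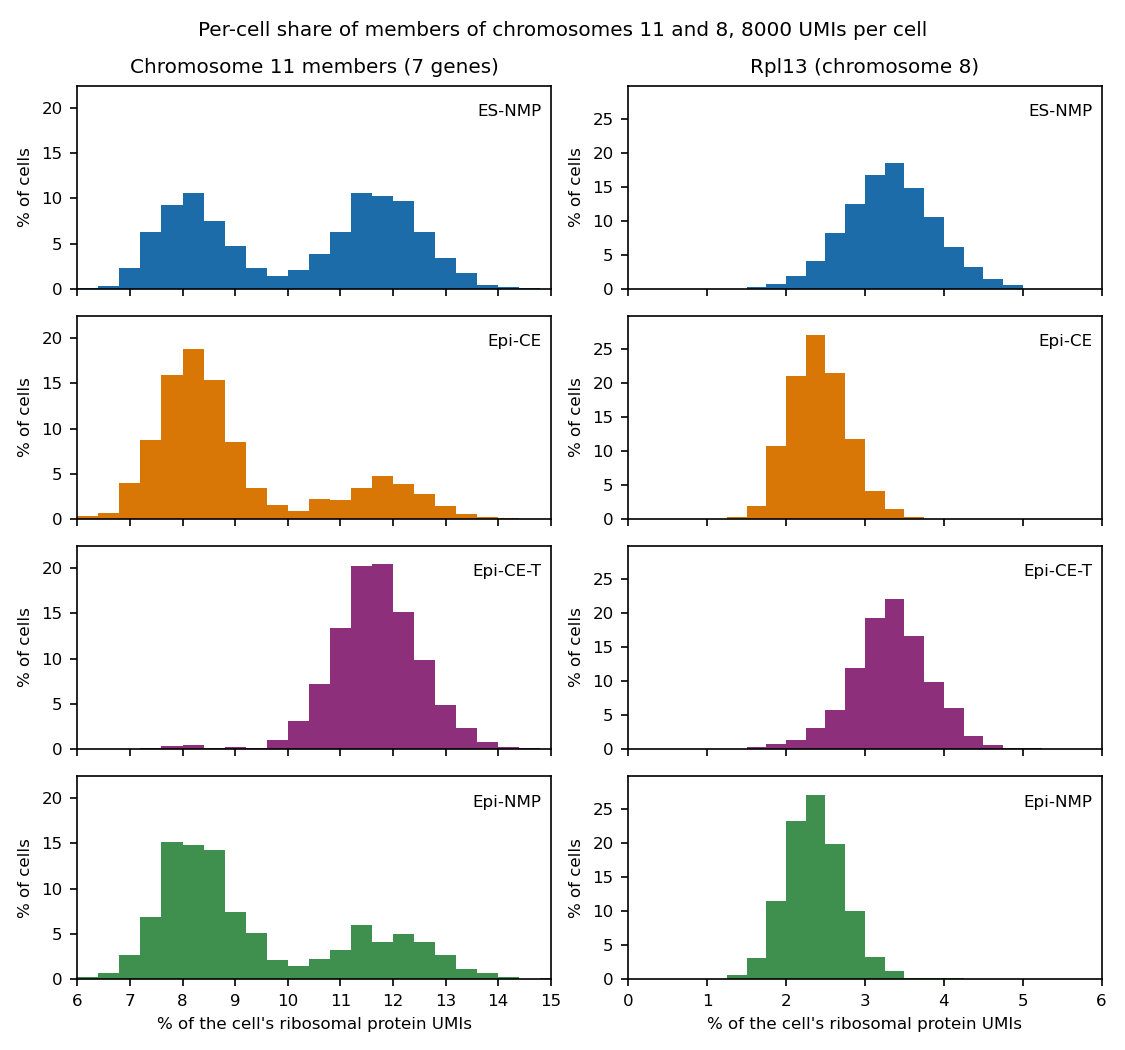
Percent of cells (y axis) by the share of chromosome 11 members (left) or Rpl13 of chromosome 8 (right) in the cell's ribosomal protein UMIs (x axis, percent), in cells thinned to 8000 UMIs, 1 row per library. On the left ES-NMP, Epi-CE and Epi-NMP have 2 peaks and Epi-CE-T essentially 1, and on the right each library has 1 peak, around a median of 3.32% in ES-NMP, 2.39% in Epi-CE, 3.33% in Epi-CE-T and 2.36% in Epi-NMP.

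The members' share followed that of 1174 other genes of chromosome 11 from cell to cell. Over the cells of a library Pearson's r between both shares was 0.88 in ES-NMP (3116 cells), 0.85 in Epi-CE (2386), 0.86 in Epi-NMP (1111) and 0.30 in Epi-CE-T (2109). Both shares come from the same cell and the same library, and r is a description. Of the other chromosomes that carry members, 6 and 13 have 1 member each and were left out here. For the 15 others with at least 2 members, chromosome 8 apart, the same r ran from -0.14 to 0.40 in ES-NMP, from -0.07 to 0.21 in Epi-CE, from -0.09 to 0.28 in Epi-CE-T and from -0.02 to 0.33 in Epi-NMP. Between Rpl13 and the other genes of chromosome 8 it was 0.54, 0.11, 0.23 and 0.13 in library order.

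Cells were then divided at 11.4% of their non-member UMIs from chromosome 11, the centre of the least filled bin between both peaks with the 4 libraries weighted equally, a limit chosen after the histograms had been seen. Over the 3 libraries with 2 peaks alone the least filled bin was centred at 11.8%. Above it lay 55.9% of ES-NMP cells (1741 of 3116), 23.3% of Epi-CE cells (555 of 2386), 96.6% of Epi-CE-T cells (2038 of 2109) and 32.9% of Epi-NMP cells (366 of 1111). Within 0.5 percentage points of the limit were 2.37%, 3.06%, 7.02% and 9.27% of cells, so some cells lay close to it in every library. In Epi-CE-T, with essentially 1 peak, the limit cut the lower edge of that peak. Whether the cells on either side are separate types was not tested. At 11.8% the shares above were 55.3%, 22.4%, 92.4% and 30.7%. Of the ribosomal protein UMIs, the 7 members held a median of 11.8% above the limit in each of ES-NMP, Epi-CE and Epi-NMP and 8.12%, 8.20% and 8.22% below it. In Epi-CE-T the 71 cells below the limit were at 10.6% and those above it at 11.7%.

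Every chromosome 11 member had a larger family share in the cells above the limit. The ratio of both shares ran from 1.301 (Rpl23a) to 1.59 (Rpl38) in ES-NMP with a median of 1.44, from 1.33 to 1.56 in Epi-CE with a median of 1.41, and from 1.31 to 1.5 in Epi-NMP with a median of 1.42. In Epi-CE-T it ran from 1.12 to 1.251. The 77 other members with enough UMIs ran from 0.824 (Rps29) to 1.39 (Rpl22l1) in ES-NMP and from 0.888 (Rpl36a) to 1.17 (Rps19bp1) in Epi-CE. In Epi-NMP they ran from 0.870 (Rps27) to 1.17 (Rps19bp1), and in Epi-CE-T from 0.904 (Rps26) to 1.21 (Rpl29). Rpl13, 1 of these 77, was lower above the limit in every library, at 0.897, 0.912, 0.921 and 0.932 in library order. The median of the 77 was also under 1, at 0.963, 0.970, 0.987 and 0.973, as a larger chromosome 11 share lowers the shares of the other members. Only Rpl22l1 in ES-NMP, of these 77, differed by 25% or more, where 30.1% of genes of other chromosomes did so in ES-NMP, 17.7% in Epi-CE and 13.4% in Epi-NMP. Other values moved with the division in ES-NMP. Zfp42 stood at 59.8 CPM above the limit and 305 below it, T at 118 and 81.3, Sox2 at 46.96 and 109, median UMIs per cell at 22990 and 20839, and the family's share of all UMIs at 27.6% and 29.3%. In Epi-CE, T stood at 470 CPM above and 450.1 below, and Sox2 at 29.5 and 31.7. T was lower above the limit in Epi-NMP (246 CPM above and 317 below) and in Epi-CE-T (442 and 579, with 71 cells below). Median UMIs per cell were higher above it in Epi-CE (24540 and 22053), Epi-CE-T (19488 and 14931) and Epi-NMP (21015 and 18483). Gains of chromosomes 8 and 11 are known to recur in cultured mouse pluripotent cells. Copy number was not measured here, and its part in these values was not tested.

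**Figure D4:**
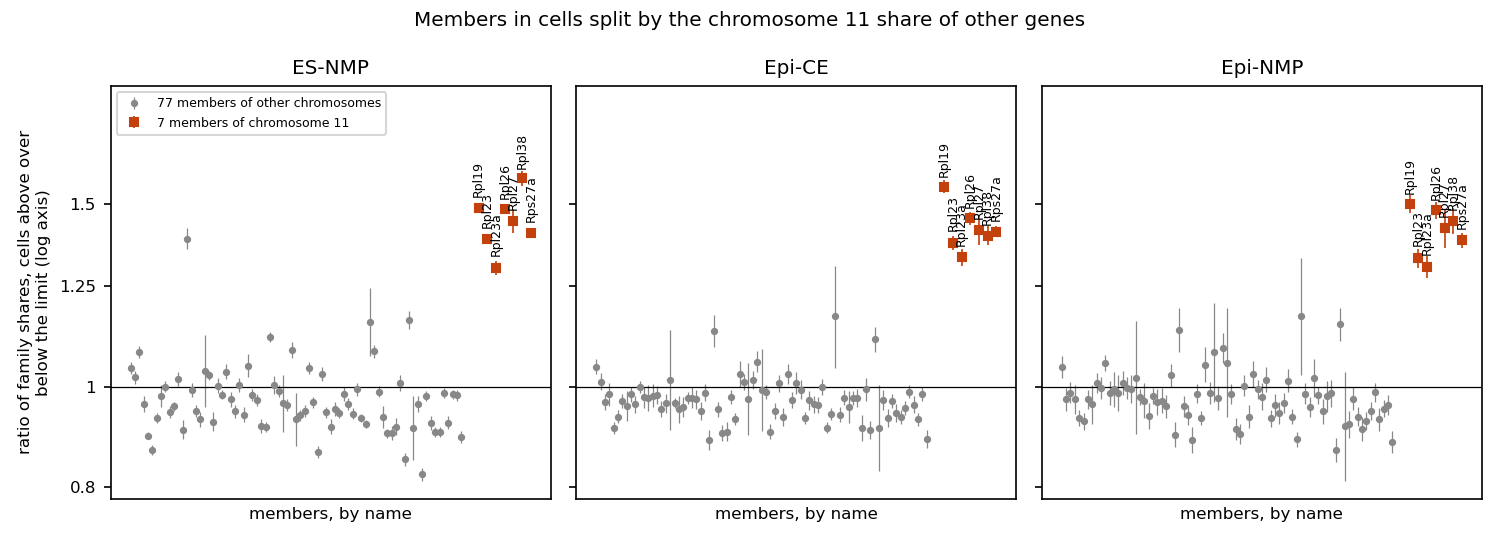
Ratio of a member's family share in cells above over cells below 11.4% of non-member UMIs from chromosome 11 (y axis, log scale), for members in order of name (x axis), with exact 95% intervals for counting error. The 7 squares, members of chromosome 11, lie between 1.301 and 1.59 in these 3 libraries, and of the 77 grey points only Rpl22l1 in ES-NMP, at 1.39, lies beyond a 25% difference.

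Reads of some members cannot be told from those of near-identical copies, which touches this pattern. Of the 50-base stretches in the last 500 bases of a member's transcript, a median of 40.2% also occurred in the transcript of another annotated gene. The share was 90.7% for Rpl13 and 63.9% for Rpl26, and over the 7 members of chromosome 11 it ran from 3.99% (Rpl23) to 92.7% (Rps27a). The members with the lowest and the highest of these shares had the smallest ratios of the 7 in Epi-CE-T over Epi-CE, 1.22 for Rpl23 and 1.246 for Rps27a. Rows for some copies elsewhere in the genome also differed between libraries. Rpl13-ps3, on chromosome 14, had 81.4, 65, 109 and 63.1 CPM in the 4 libraries, and Rpl23a-ps3, also on chromosome 14, had 268, 313, 431 and 314. Rpl27-ps3, on chromosome 18, had 72.1, 72.3, 99.6 and 67.4. All 3 were highest in Epi-CE-T, but only Rpl13-ps3 was lower in Epi-CE than in ES-NMP, as both Rpl13 and Rpl27 were. How reads that map to several places were treated is not given in the sources used here, so values of members with such copies, and of the copies, are uncertain. All 16 such rows together held 0.0962% to 0.127% of UMIs.

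Away from chromosomes 8 and 11, the stalk proteins were among the 36 of 75 members that were lowest in Epi-CE-T. The larger shares of Rpl13 and the chromosome 11 members there can raise that count. Rplp1 (chromosome 9, 61913284 to 61914542, minus strand) and Rplp2 (chromosome 7, 141447370 to 141451585, plus strand) are the small acidic proteins of the stalk, and Rplp0 (chromosome 5, 115559467 to 115563727, plus strand) is its base. Rplp1 had 139 UMIs per 10000 family UMIs in ES-NMP, 122 in Epi-CE, 85.1 in Epi-CE-T and 127 in Epi-NMP, and Rplp0 had 126, 141, 103 and 155. Rplp2 had 113, 104, 88.9 and 108. All 3 were lowest in Epi-CE-T, where Rplp1 was 1.43-fold, Rplp0 1.36-fold and Rplp2 1.17-fold lower than in Epi-CE. As the mean over single cells, which weights each cell equally, the Rplp1 ratio was 0.657 and passed the 1.5-fold limit. The 3 did not keep a fixed ratio: Rplp1 UMIs per 100 Rplp2 UMIs were 123, 118, 95.7 and 118, and Rplp0 UMIs per 100 Rplp2 UMIs were 112, 136, 116 and 143. Such a ratio of UMIs serves to compare libraries and not the amounts of both mRNAs, which capture can weight differently.

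The start regions of Rplp0 and Rplp2 are shown because the stalk genes differ there, with a TOP match in Rplp2 and none in Rplp0.

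Rplp0 (chr5:115559457-115559486, plus strand): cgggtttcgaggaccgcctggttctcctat

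Rplp2 (chr7:141447641-141447670, plus strand): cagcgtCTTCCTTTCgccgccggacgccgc

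Both cell state and depth moved with Rplp1 inside Epi-CE-T. In cells thinned to 8000 UMIs, Rplp1 had 71.0 UMIs per 10000 family UMIs in the 1571 Epi-CE-T cells with a T UMI and 98.8 in the 538 without, a ratio of 0.719 (0.704 to 0.735). It was the only one of 84 members at a difference of 25% or more there, where 35.8% of 6955 genes reached it. Rplp0 was at 0.866, Rps12 at 0.824, Rpl5 at 0.817 and Rps27l at 0.810. Before thinning, cells with a T UMI had a median of 17889 UMIs and those without had 24985. In Epi-NMP the Rplp1 ratio was 0.827 (0.809 to 0.846) for 583 cells with and 528 without a T UMI, and in ES-NMP it was 1.01 (0.993 to 1.02). By depth, the third of Epi-CE-T cells with the fewest UMIs had 65.4 Rplp1 UMIs per 10000 family UMIs and the third with the most had 97.9. The corresponding values were 112 and 127 in Epi-CE, 114 and 134 in Epi-NMP and 138 and 140 in ES-NMP, so Epi-CE-T was below the other libraries at either depth. The part of depth, of the sort and of the node and notochord markers in the Rplp1 value was not tested.

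Rps12, a small-subunit protein (chromosome 10, 23785183 to 23787275, minus strand), had 82.9, 68.4, 56.1 and 78.2 UMIs per 10000 family UMIs in the 4 libraries. It was 1.21-fold lower in Epi-CE than in ES-NMP and 1.22-fold lower in Epi-CE-T than in Epi-CE. Of its 50-base stretches 96.9% occurred in the transcripts of other genes, and the row Rps12-ps3 had 197, 187, 171 and 199 CPM, so it too was lowest in Epi-CE-T. Rpsa, the laminin receptor and small-subunit protein, was also lowest in Epi-CE-T, at 95.8 against 117 to 125 in the others, and 1.22-fold lower there than in Epi-CE.

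Rpl22l1 was the one member of common abundance that passed 1.5-fold in a comparison of the design. It is a paralogue of Rpl22, which is known to repress it. It lies on chromosome 3 (28805436 to 28807424, plus strand) and had 42.1 UMIs per 10000 family UMIs in ES-NMP, 63.9 in Epi-CE, 50.6 in Epi-CE-T and 44.6 in Epi-NMP. Epi-CE was the highest library, 1.52-fold (1.51 to 1.53) above ES-NMP, and Epi-NMP was 1.43-fold below Epi-CE. The first of these ratios lay just under the 1.5-fold limit with TMM scaling (1.49), with DESeq2 size factors (1.48) and as the mean over cells (1.49). Rpl22 itself (chromosome 4) had 50.8, 48.7, 45.3 and 47.2, a range of 1.12-fold. Rpl22l1 UMIs per 100 Rpl22 UMIs were accordingly 82.8, 131, 112 and 94.5. The start regions of both genes are shown because the paralogue holds a TOP match and Rpl22 none in this window. For Rpl22 the window is that of 1 of 2 annotated starts. It lies upstream of the gene position used here (152325742 to 152334071, plus strand), so the contrast is uncertain.

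Rpl22l1 (chr3:28805498-28805527, plus strand): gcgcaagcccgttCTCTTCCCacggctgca

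Rpl22 (chr4:152324426-152324455, plus strand): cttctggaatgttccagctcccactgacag

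Within ES-NMP, Rpl22l1 was low in cells with naive pluripotency RNA. In cells thinned to 8000 UMIs it had 28.4 UMIs per 10000 family UMIs in the 905 cells with a Zfp42 UMI and 47.7 in the 2211 without, a ratio of 0.595 (0.578 to 0.612). Of 84 members 3 differed by 25% or more in this division, all lower in the cells with Zfp42, where 48.2% of 7587 genes reached it. The other two were Rpl38, of chromosome 11, at 0.750 and Rps27l at 0.789. Rps29 was the highest member, at 1.22 (1.20 to 1.24). With the Zfp42 cells left out of ES-NMP, the ratio of Rpl22l1 in Epi-CE over ES-NMP was 1.33, under the limit. The part of the naive cells in the remaining difference was not tested. Across T the ES-NMP ratio of Rpl22l1 was 1.24 (1.21 to 1.27), and across Sox2 it was 0.777 (0.758 to 0.797). In Epi-CE, 0 of 84 members differed by 25% or more across T, Sox2 or Foxa2, where 18%, 9.86% and 14% of genes did.

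**Figure D5:**
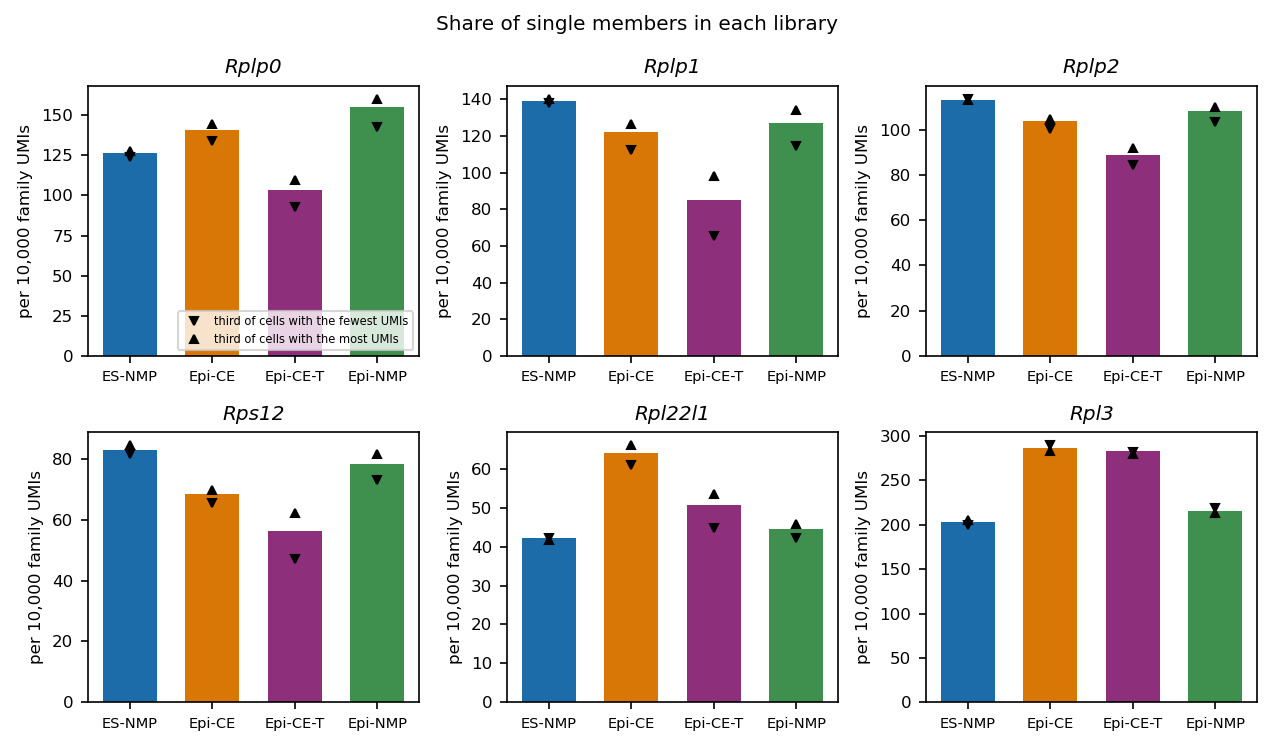
UMIs per 10000 family UMIs (y axis, from 0) of Rplp0, Rplp1, Rplp2, Rps12, Rpl22l1 and Rpl3 in each library (bars, 1 library each, no replicate error), with the third of cells with the fewest UMIs (downward triangles) and the third with the most (upward triangles). Rplp1 is lowest in Epi-CE-T at 85.1, with 65.4 in the shallowest and 97.9 in the deepest cells, Rpl22l1 is highest in Epi-CE at 63.9, and Rpl3 is high in Epi-CE and Epi-CE-T at 286 and 283.

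Rpl3, the large-subunit protein that reaches toward the peptidyl transferase centre, separated the libraries in another way. It lies on chromosome 15 (80077791 to 80091868, minus strand) and had 203 UMIs per 10000 family UMIs in ES-NMP, 286 in Epi-CE, 283 in Epi-CE-T and 216 in Epi-NMP. Epi-CE and Epi-CE-T were high, and ES-NMP and Epi-NMP low. Its ratio was 1.41 (1.40 to 1.41) in Epi-CE over ES-NMP, 0.754 (0.749 to 0.758) in Epi-NMP over Epi-CE and 0.990 (0.986 to 0.994) in Epi-CE-T over Epi-CE. In the third of cells with the fewest and the third with the most UMIs it had 289 and 283 in Epi-CE and 200 and 205 in ES-NMP. Rps2, a small-subunit protein, had 112, 143, 114 and 130, so it was likewise higher in Epi-CE than in ES-NMP (1.28, 1.27 to 1.28) but was 1.255-fold lower in Epi-CE-T than in Epi-CE. Rpl41, a very short large-subunit protein, was lowest in ES-NMP (212, against 258, 256 and 278), and Epi-NMP over ES-NMP was 1.31 (1.302 to 1.317).

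Some further members, rare or common, also differed by 25% or more. Rpl29 had 3.54, 3.42, 3.49 and 4.66 UMIs per 10000 family UMIs in the 4 libraries, and Epi-NMP over Epi-CE was 1.36 (1.301 to 1.424). Rps26 had 71.0, 64.2, 68.0 and 80.8, with 1.26 (1.245 to 1.272) in the same comparison. The 2 members that are not structural proteins varied more than nearly all others. Rpl7l1 had 6.47, 5.11, 3.88 and 5.15, and Rps19bp1, a regulator that binds Rps19, had 4.12, 3.06, 2.59 and 4.23. Both were lowest in Epi-CE-T, and Rps19bp1 was 1.38-fold (1.32 to 1.45) higher in Epi-NMP than in Epi-CE.

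The other paralogues stayed closer to their partners. Rps27l had 56.1, 50.2, 46.9 and 52.6 UMIs per 10000 family UMIs, and its UMIs per 100 Rps27 UMIs were 58.03 in ES-NMP and 48.01 to 49.96 in the other libraries. Rpl36al had 33.9, 30.4, 29.2 and 30.3, or 42.6 UMIs per 100 Rpl36a UMIs in ES-NMP and 31.3 to 35.1 elsewhere. ES-NMP was the high library for both ratios. Rpl6l and Rps27rt, which are close copies of Rpl6 and Rps27, were lowest in ES-NMP (5.47 and 4.14) and highest in Epi-CE-T (7.06 and 5.10). Of the other partners, Rpl7 ranged over 1.06-fold, Rps4x over 1.06-fold, Rpl10 over 1.13-fold, Rpl10a over 1.12-fold and Rpl39 over 1.14-fold.

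Rpl39l and Rpl10l, best known from male germ cells, were found almost only in ES-NMP. Both reached the minimum of UMIs only through that library, so the minimum itself favours this pattern. Rpl39l had 256 UMIs in 143 of 3116 ES-NMP cells (4.59%, 3.88% to 5.38%) and 0 UMIs in the TRUE cells of the other 3 libraries. Relative to a floor of 3 counts per library, its CPM was at least 70.0-fold higher in ES-NMP than in Epi-CE, at least 53.6-fold higher than in Epi-CE-T and at least 26.5-fold higher than in Epi-NMP. Taken as 3 cells of the total, a count of 0 allows a share of cells with an Rpl39l UMI of up to 0.126% in Epi-CE, 0.142% in Epi-CE-T and 0.270% in Epi-NMP, which limits cells with a UMI and not cells that express the gene. Rpl10l had 441 UMIs in 293 ES-NMP cells (9.40%, 8.40% to 10.5%), 4 UMIs in 4 Epi-CE cells (0.168%) and 0 in Epi-CE-T and Epi-NMP. It was 90.4-fold higher (35.05 to 333) in ES-NMP than in Epi-CE, at least 92.4-fold higher than in Epi-CE-T and at least 45.7-fold higher than in Epi-NMP. Thinned to 8000 UMIs, 2.25% of ES-NMP cells had an Rpl39l UMI and 3.66% an Rpl10l UMI. Rpl3l, under the minimum of UMIs, had 28 of its 32 UMIs in ES-NMP. Against their partners these were traces, with 0.151 Rpl39l UMIs per 100 Rpl39 UMIs and 0.184 Rpl10l UMIs per 100 Rpl10 UMIs in ES-NMP.

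The start regions of Rpl39, Rpl39l and Rpl10l show a TOP match in Rpl39 and none in either rare relative. Rpl10, the partner of Rpl10l, has no match in its window either.

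Rpl39 (chrX:37085203-37085232, minus strand): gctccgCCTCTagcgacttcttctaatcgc

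Rpl39l (chr16:10170218-10170247, plus strand): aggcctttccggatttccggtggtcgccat

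Rpl10l (chr12:66284382-66284411, minus strand): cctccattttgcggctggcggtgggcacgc

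The summed naive pluripotency markers were high in the same library, and Rpl10l and Rpl39l went with them. Without the ES-NMP cells that had a Zfp42 UMI, the ratio of family shares in Epi-CE over ES-NMP moved from 0.0110 to 0.0541 for Rpl10l and from a bound of 0.0143 to one of 0.0662 for Rpl39l, so both stayed far below 1.

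Many genes whose products assemble ribosomes were lower in Epi-CE than in ES-NMP. The 34 measured genes of a list of ribosome biogenesis factors summed to 8152 CPM in ES-NMP, 4845 in Epi-CE, 3920 in Epi-CE-T and 6763 in Epi-NMP. In Epi-CE over ES-NMP 20 of the 34 were at least 1.5-fold lower and 0 higher, with a median log2 CPM ratio of -0.76, where 16.7% of all genes tested were lower by that measure. Epi-NMP over Epi-CE went the other way, with 14 higher and 1 lower and a median of 0.54, where 15.8% of all genes were higher. Epi-CE-T over Epi-CE had 7 lower and 0 higher, where 15% of all genes were lower. Epi-NMP over ES-NMP had 3 lower and 0 higher, where 20% of all genes were lower. Heatr1, a small-subunit processome protein, had 8.94, 3.19 and 7.23 CPM in ES-NMP, Epi-CE and Epi-NMP, and Rrp12 was 2.72-fold lower in Epi-CE than in ES-NMP. Nolc1, a nucleolar chaperone, was 1.99-fold (1.92 to 2.06) higher in Epi-NMP than in Epi-CE, and Rrs1 and Dkc1 were 1.80-fold and 1.79-fold lower in Epi-CE-T than in Epi-CE.

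Of the 12 genes of the RNA polymerase I machinery, which transcribes ribosomal RNA, 7 were at least 1.5-fold lower in Epi-CE than in ES-NMP and 0 higher, and 4 were higher and 1 lower in Epi-NMP than in Epi-CE, beside the same 16.7% and 15.8% of all genes lower and higher. In Epi-CE-T over Epi-CE 0 of the 12 passed in either direction. Ubtf, the factor that opens ribosomal DNA, was 2.32-fold lower in the first comparison and 2.05-fold (1.93 to 2.19) higher in the second. Polr1b, a polymerase subunit, was 2.11-fold lower and 1.97-fold (1.75 to 2.22) higher. Of the 3 Myc genes, which drive ribosome production, Mycn had 68.8, 38.3, 30.1 and 60.0 CPM in the 4 libraries, and Myc had 6.53, 4.67, 6.51 and 19.1.

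By contrast, 17 translation factors with known TOP mRNAs summed to 30016, 30412, 29068 and 28876 CPM, and only Eif4a2 among them passed 1.5-fold in any of the 4 comparisons. It had 127, 332, 599 and 122 CPM in the 4 libraries. Of 76 mitochondrial ribosomal protein genes, 9 were lower and 1 higher in Epi-CE than in ES-NMP, where 16.7% of all genes were lower and 22.1% higher. In Epi-NMP over Epi-CE 7 were higher and 2 lower, where 15.8% and 25% of all genes were, and in Epi-CE-T over Epi-CE 1 was higher and 0 lower. These shares lie below those of all genes. Of 20 genes of mTORC1 and TOP control, 2 were higher and 0 lower in Epi-CE than in ES-NMP, where 22.1% of all genes were higher and 16.7% lower. In Epi-NMP over ES-NMP 1 was higher and 3 were lower, where 17.6% of all genes were higher and 20% lower. Epi-NMP over Epi-CE had 3 higher and 3 lower, where 15.8% of all genes were higher and 25% lower. Epi-CE-T over Epi-CE had 0 higher and 2 lower, where 18.9% of all genes were higher and 15% lower. The widest range was that of Ddit4, a stress-induced inhibitor of mTORC1, with 186, 829, 551 and 62.6 CPM. Of 11 genes of p53 and ribosomal stress, 4 were higher and 0 lower in Epi-CE-T than in Epi-CE, where 18.9% of all genes were higher, among them Mdm2, the ubiquitin ligase of p53, at 1.74-fold (1.68 to 1.81) and the cell cycle inhibitor Cdkn1a at 1.64-fold (1.61 to 1.66). The others were Ccng1 at 1.57, which lies on chromosome 11, and Eda2r at 1.51. These values come with the sort and the separate line of Epi-CE-T, and 33.8% of all genes passed 1.5-fold in that comparison.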

How the data were processed

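The deposited count table gives whole UMI counts for each gene in each cell, with no normalization by the authors, and a deposited cell table gives each barcode's library and its TRUE or FALSE mark. Build mm10, Seurat 2.0 and Cell Ranger 1.3.1 are named in the submitters' processing notes. Alignment settings, the annotation, the treatment of multi-mapping reads and the meaning of the mark are not given in the sources used here. TRUE barcodes had at least 8011 UMIs and 2501 genes. Doublets were not called.

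Libraries were grouped by sample title. Counts were summed over the TRUE cells of a library and divided by its total (CPM, per 1000000) or by its family total (per 10000). Ratios carry exact conditional binomial intervals and shares exact Clopper-Pearson intervals, both at 95% and for counting error only. UMIs limit duplicate counting, not differences between cultures. A count of 0 was set to a floor of 3 counts. A member departed at 1.5-fold, and a lower limit of 25% is also given. The ratio script was tested on simulated data. Cells were thinned without replacement to 8000 UMIs for values per cell and for divisions by T, Sox2, Zfp42 or Foxa2. Members with at least 200 UMIs entered those divisions. Chromosome medians used genes with at least 20 CPM in 1 of both libraries.

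Named members were those past 1.5-fold in a comparison, paralogues and stalk proteins, the 3 with the largest and the 3 with the smallest factor between libraries, and those next to a limit. Of each other list the 2 highest and 2 lowest ratios with at least 200 UMIs could be named, and of these the text names some. Rpl13, the chromosome 11 members, Rpl41, Rps2, Rps26, Rpl29, Rpl5 and Rps29 were singled out after their values were seen. The members, lists and limits were chosen with earlier results of these data known. Positions came from GENCODE M21 (14261 of 14336 genes matched) and start regions from RefSeq on GRCm38.p6. No protein sequence was used here. Of the family, 1 member counts in every sum and count over all members but is not reported here by itself. Python 3.11.15, numpy 2.4.6, scipy 1.17.1, pandas 2.3.3 and matplotlib 3.10.9 were used, and the scaling alternatives came from edgeR 4.0.16 (TMM factors) and DESeq2 1.42.0 (size factors) in R 4.3.3. The alternatives changed the barcodes, the scale, the minimum, the weighting of cells, the depth and the fold.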

Additional observations from a re-analysis of the deposited data

How the results depend on the processing

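No paired analysis was possible because each group is 1 library, and no replicate could be left out. The family share stayed between 27.3% and 29.6% in these alternatives, and a move is counted here where it passed the interval for counting error. In library order it was 28.19%, 28.22%, 28.11% and 28.07% over all barcodes, 28.36%, 28.50%, 28.19% and 28.04% as the mean of cells, 29.36%, 29.59%, 28.30% and 29.22% in the third of cells with the fewest UMIs, and 27.58%, 27.38%, 27.72% and 27.27% in the third with the most. It was 28.77%, 28.84%, 28.85% and 28.51% without mitochondrial genes in the total and 28.09%, 28.17%, 28.06% and 27.74% without Rps19bp1 and Rpl7l1. Among cells from the 10th to the 90th percentile of depth it was 28.25% in Epi-CE and 28.24% in Epi-CE-T, and without Zfp42 cells it was 27.71% in ES-NMP. In cells under the chromosome 11 limit of 11.4%, chosen after seeing the data, it was 29.01%, 28.28%, 27.52% and 27.95%.

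Departing members numbered 8 in Epi-CE against ES-NMP, 7 in Epi-NMP against ES-NMP, 5 in Epi-NMP against Epi-CE and 12 in Epi-CE-T against Epi-CE at the 25% limit. With no minimum of UMIs but at least 1 UMI in both libraries, Epi-NMP over ES-NMP had 0. Epi-CE-T over Epi-CE had 1 (Rplp1) as the mean of cells, in cells of middle depth and in thinned cells, and 2 (Rplp1 and Rplp0) in cells under the chromosome 11 limit. Rpl22l1 in Epi-CE over ES-NMP fell under 1.5 with TMM (1.49), DESeq2 size factors (1.48), the mean of cells (1.49), without Zfp42 cells (1.33) and, as an alternative added after seeing the data, with chromosome 8 and 11 members out of the family sum (1.47). Of 1269 pairs of a member ratio and an alternative, 9 moved by over 1.5 times, each for Rpl39l or Rpl10l, and for other members the largest move was 1.24 times. The cause of these moves was not tested. Depth limits Rpl39l and Rpl10l, whose counts outside ES-NMP are 0 to 4.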
